A study of Mus musculus with 12 samples.

Results

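Heat shock chaperones, the protein-folding machinery of the cytosol and the mitochondrion, were followed at the RNA level in eosinophils from fat and blood. The 10 genes were taken by name from 54115 annotated genes: Hspa1a, Hspa1b, Hspa8 and Hsph1 of the HSP70 and HSP110 families, Dnaja1 and Dnajb1 of the HSP40 family, Hsp90aa1 and Hsp90ab1 of the HSP90 family, and Hspd1 and Hspe1, the mitochondrial HSP60 and HSP10. Reads of all transcripts of a gene were summed, and Hspa1a and Hspa1b, which are near-identical copies, were also added together.

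Eosinophils are granulocytes that leave the blood and settle in tissues such as fat. The libraries compared cells of gonadal white adipose tissue (mice 2668, 2683, 2807 and 2846), of subcutaneous white adipose tissue (mice 2668, 2771, 2807 and 2846) and of blood (mice 2668, 2683, 2771 and 2807), with 4 libraries in each group. A library is named by its tissue and mouse, as in gonadal 2668. All 5 mice were wild-type FVB/NJ males of 20 weeks on chow that had received no treatment. In every group red blood cells were lysed and live cells positive for CD45, CD11b and Siglec-F were sorted. The fat had first been digested with collagenase type II (1 mg/mL, 37 C, 45 min), whereas no digestion is given for blood, so that tissue and digestion cannot be told apart in any comparison of fat with blood.

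HSP70 proteins grip exposed stretches of unfolded protein and let go again in a cycle driven by ATP. J-domain proteins of the HSP40 family deliver clients and start the cycle, HSP110 proteins such as Hsph1 exchange the nucleotide, and HSP90 takes over clients that need late folding steps. Heat shock factor 1 (HSF1), which is held inactive by chaperones in unstressed cells, binds repeats of a short GAA unit in front of many of these genes and raises their transcription when unfolded protein accumulates. Hspa1a and Hspa1b are the strongly inducible HSP70 genes, Hspa8 and Hsp90ab1 the constitutive members of their families, and Hsp90aa1 the inducible HSP90 gene.

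The inducible pair is shown first, because it had the largest fold changes of the 10 genes and because its copies are near-identical. Both are single-exon genes on the minus strand of chromosome 17 in GRCm38, the assembly of mm10: Hspa1a (ENSMUSG00000091971) at chr17:34969190-34972156 and Hspa1b (ENSMUSG00000090877) at chr17:34956436-34959238. Their coding sequences are 1923 and 1926 bases long and differ at 34 positions, an identity of 98.2%. Of all 31-base words, 63.8% of those in the Hspa1a transcript also occur in Hspa1b, and 67.6% of those in Hspa1b occur in Hspa1a. The 250 bases before the start of each gene, from RefSeq on GRCm38.p6, are given 5′ to 3′ on the minus strand for chr17:34972157-34972406 (Hspa1a) and chr17:34959239-34959488 (Hspa1b), with capitals marking a pair of facing GAA units separated by 2 free bases.
Hspa1a: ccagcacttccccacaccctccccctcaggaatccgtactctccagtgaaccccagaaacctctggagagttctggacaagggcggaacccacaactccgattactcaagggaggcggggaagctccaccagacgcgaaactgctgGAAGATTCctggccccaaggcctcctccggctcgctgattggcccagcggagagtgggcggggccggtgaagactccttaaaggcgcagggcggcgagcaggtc
Hspa1b: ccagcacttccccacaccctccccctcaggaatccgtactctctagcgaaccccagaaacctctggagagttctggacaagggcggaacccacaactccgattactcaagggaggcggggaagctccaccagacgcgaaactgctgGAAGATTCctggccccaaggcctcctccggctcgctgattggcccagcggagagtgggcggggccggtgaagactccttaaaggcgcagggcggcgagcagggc
These stretches are the same at 247 of 250 positions, and in both the paired units begin 104 bases before the start.

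Promoter windows of 300 bases (250 before the start and 50 after) were found for 7 of the 10 genes. Hspa8, Hsp90aa1 and Hsp90ab1 had no entry. Facing units were searched on both strands as GAANNTTC or TTCNNGAA, and 3 alternating units as either of these followed by a further unit after 2 free bases, so that each match of 3 units also holds 2 overlapping matches of 2 units. Such a pair lay in a window of 6 of the 7 chaperone genes, and in 17.0% of all 27025 genes with a window. All 3 alternating units together lay in a window of 3 of the 7, Hspd1, Hspe1 and Hsph1, and in 0.662% of all genes. Hspd1 and Hspe1 stand head to head on chromosome 1 and share a run of 18 bases at chr1:55088059-55088076, which is given for each gene on its own strand (minus for Hspd1, plus for Hspe1), with all units in capitals.
Hspd1: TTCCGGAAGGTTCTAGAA
Hspe1: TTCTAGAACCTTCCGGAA
The run begins 144 bases before the start of 1 window of Hspd1 and 89 bases before that of Hspe1. Another window of Hspd1, chr1:55088194-55088493, had no match. The run lies within the annotated Hspd1 gene, chr1:55077835-55088243. In Hsph1 the 3 units read TTCTGGAAAGTTC (chr5:149636288-149636300, minus strand, 13 bases) and began 15 or 36 bases after the start, depending on the window. Dnaja1 had 1 pair, GAAAATTC, 124 bases before the start of 1 of its windows, and Dnajb1 had none. These are matches of letters in a window and do not show that a factor binds there.

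Depth ran from 12477671 to 23734940 estimated reads except in subcutaneous 2846, which had 4379954 reads, of which 28% were mitochondrial ribosomal RNA (4.64% to 8.74% elsewhere). That library also held the most fibroblast marker RNA. Without it and blood 2807, the HSP70 pair had log2 fold changes of 9.40 in gonadal and 10.08 in subcutaneous adipose over blood. All 10 genes were then called higher in each depot, beside 2928 of all 15723 genes in gonadal and 2211 in subcutaneous adipose. These 2 libraries held the lowest Hspd1 of fat and the highest of blood, so leaving them out favours a call of Hspd1. Blood 2807 had a depth within the range above, and the value that stood apart in it was that of Hsp90ab1, a gene of the 10. The call of all 10 is therefore no separate support. With all 12 libraries 9 genes were called higher in each depot, and Hspd1 was not called.

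Chaperone genes took 0.346% to 0.526% of all reads in gonadal adipose eosinophils and 0.561% to 0.805% in subcutaneous ones, against 0.0513% to 0.0817% in blood eosinophils. The groups did not overlap. In the edgeR quasi-likelihood test with Benjamini-Hochberg adjustment over 15367 genes (threshold 0.05), 9 of the 10 genes were higher in gonadal adipose than in blood and none was lower, while 15.4% of all genes tested were higher and 11.6% lower. The same 9 were higher in subcutaneous adipose than in blood and none was lower, with 15.4% of all genes higher and 11.4% lower. The median log2 fold change of the 10 genes was 2.51 for gonadal adipose and 3.61 for subcutaneous adipose over blood, where all genes had medians of 0.08 for gonadal and 0.07 for subcutaneous adipose. Both comparisons use the same 4 blood libraries. Hspd1 was the gene that passed in neither. In bulk RNA, fewer cells of a type and less RNA per cell cannot be told apart.

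Markers of the sorted cells and of other cells were checked as well. Levels are CPM, read counts scaled to a common library size (TMM). Siglecf, the gene of 1 of the 3 sort markers, averaged 341 ± 138 CPM in gonadal and 307 ± 142 CPM in subcutaneous adipose, against 273 ± 44.3 CPM in blood (SD, n = 4 each), and was present in every library. Epx, eosinophil peroxidase, averaged 4.49 ± 1.86 CPM in gonadal and 3.95 ± 3.24 CPM in subcutaneous adipose, against 4.45 ± 2.02 CPM in blood, and was at 0 in subcutaneous 2846. Ptprc, which encodes CD45, was lower in both depots, with a log2 fold change of -0.90 in gonadal (edgeR adjusted p = 0.0171) and -0.85 in subcutaneous adipose (adjusted p = 0.023), and so was Itgam, which encodes CD11b, with -0.95 in gonadal (adjusted p = 0.0152) and -1.05 in subcutaneous adipose (adjusted p = 0.00972). The eotaxin receptor gene Ccr3 was also lower, with -1.07 in gonadal (edgeR adjusted p = 0.0316) and -1.12 in subcutaneous adipose (adjusted p = 0.0275). Siglecf and Epx did not pass: Siglecf had an edgeR adjusted p of 0.535 in gonadal and 0.748 in subcutaneous adipose, and Epx one of 0.994 in gonadal and 0.916 in subcutaneous adipose. The 14 eosinophil markers summed to 3749 to 8277 CPM in gonadal and 3434 to 8027 CPM in subcutaneous libraries, against 9290 to 10608 CPM in blood, and 7 of 14 were lower in each depot. Macrophage markers summed to 802 to 2323 CPM in gonadal and 934 to 3174 CPM in subcutaneous libraries, against 319 to 620.2 CPM in blood, with 5 of 10 higher in gonadal and 6 of 10 in subcutaneous adipose, and none at 0 throughout a group. Fibroblast markers summed to 183 to 555 CPM in gonadal and 266 to 4280 CPM in subcutaneous libraries, against 139 to 206 CPM in blood, with 8 of 10 higher in each depot. Neutrophil markers summed to 374 to 802 CPM in gonadal and 409 to 1296 CPM in subcutaneous libraries, against 2915 to 4257 CPM in blood, with 6 of 8 tested lower in each depot, and Ly6g and Camp were at 0 in all fat libraries. Monocyte markers summed to 854 to 6814 CPM in gonadal and 328 to 1466 CPM in subcutaneous libraries, against 86.1 to 1834 CPM in blood, with 2 of 6 higher in each depot. T and NK cell markers were at 3.26 to 6.27 CPM in gonadal and 21.8 to 199.5 CPM in subcutaneous libraries, against 9.17 to 24.2 CPM in blood, with 3 of 8 lower in gonadal and 3 of 8 higher in subcutaneous adipose. B cell markers summed to 4.81 to 12.1 CPM in gonadal and 11.99 to 85.9 CPM in subcutaneous libraries, against 21.5 to 232 CPM in blood, and 5 of 6 were lower in gonadal and none in subcutaneous adipose. Erythroid markers summed to 21.1 to 99.7 CPM in gonadal and 7.65 to 230.3 CPM in subcutaneous libraries, against 17.7 to 143.5 CPM in 3 blood libraries and 8353 CPM in blood 2771, and 3 of 5 tested were lower in gonadal and none in subcutaneous adipose. Without blood 2771, as without any 1 other library, the 9 chaperone genes called in each depot were still called. The part of any of these cells in the chaperone result was not tested.

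**Figure D1:**
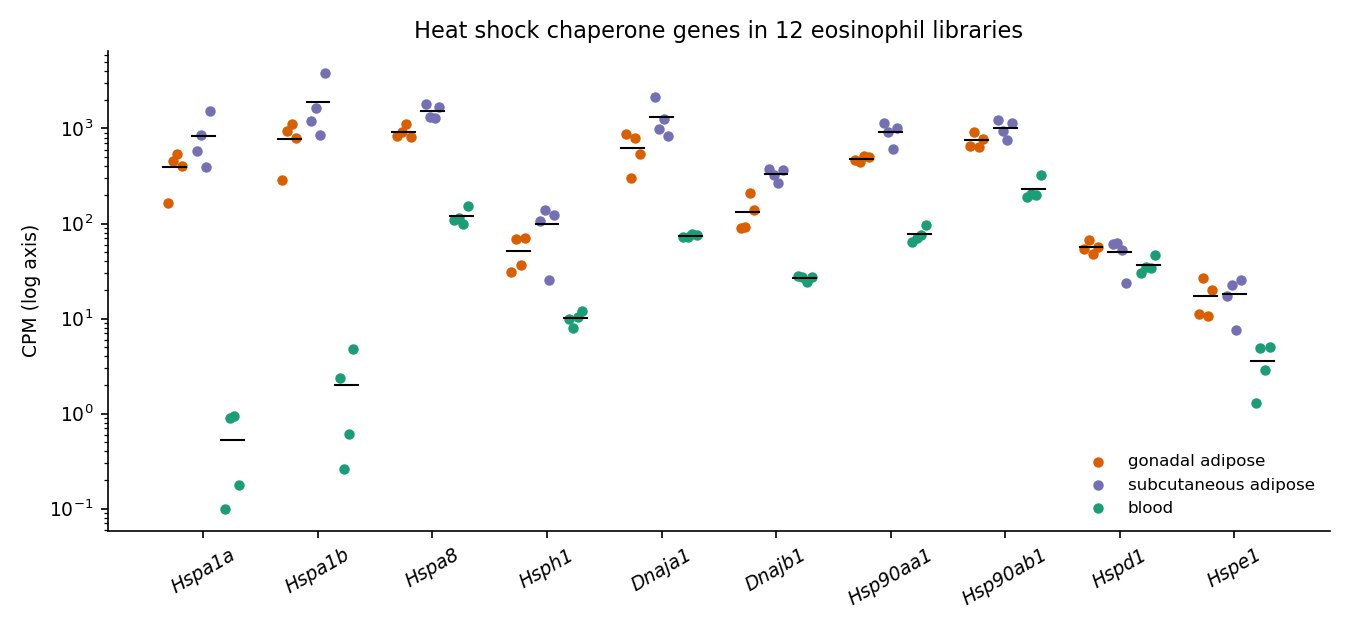
CPM (log axis) of each chaperone gene in every library; points are libraries, 4 per group, and lines are group means. Gonadal and subcutaneous points lie above all blood points for every gene but Hspd1, whose lowest subcutaneous value of 23.7 CPM lies below all blood values. The share of all genes that lie above blood in this way is not given.

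The inducible HSP70 pair rose in both depots, with the largest fold changes of the 10 genes. Hspa1a and Hspa1b together stood at 452, 1396, 1657 and 1185 CPM in the gonadal libraries of mice 2668, 2683, 2807 and 2846, and at 1796, 2517, 1261 and 5391 CPM in the subcutaneous libraries of mice 2668, 2771, 2807 and 2846. In the blood libraries of mice 2668, 2683, 2771 and 2807 the pair stood at 2.48, 1.15, 1.55 and 4.99 CPM. Every fat library thus lay far above every blood library, and subcutaneous 2846 was the highest. The sum was 463.5-fold higher in gonadal adipose (log2 fold change 8.86, SE 0.751, edgeR adjusted p = 1.401e-05) and 1083-fold higher in subcutaneous adipose (10.08, SE 0.786, adjusted p = 7.377e-06) than in blood. The blood values rest on 49.9, 21.7, 33.0 and 84.0 estimated reads, against 7420 to 35553 reads in a gonadal and 15917 to 40633 in a subcutaneous library. In the 3 mice with both libraries, the pair was higher by 7.25 to 9.72 in gonadal adipose and by 7.85 to 10.26 in subcutaneous adipose than in blood of the same mouse, as log2 of CPM plus 0.5.

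Within the pair, Hspa1b held the larger share in fat. Hspa1a held 32.2% to 36.7% of the pair's reads in gonadal and 28.1% to 34.1% in subcutaneous libraries. In blood its share ran from 3.27% to 77.0%, on 2.01 to 19.7 reads of Hspa1a and 4.99 to 81.3 of Hspa1b, so that at this depth the copies cannot be separated. Counted alone, Hspa1a had a log2 fold change of 9.49 (SE 0.778, edgeR adjusted p = 1.357e-05) in gonadal and 10.59 (SE 0.807, adjusted p = 7.464e-06) in subcutaneous adipose over blood, and 9.89 in subcutaneous adipose without subcutaneous 2846 and blood 2807. Hspa1b had 8.62 in gonadal (SE 0.986, adjusted p = 0.0001514) and 9.90 in subcutaneous adipose (SE 1.03, adjusted p = 8.261e-05). Without blood 2807, which holds the most Hspa1b reads of the blood group, these were 9.44 in gonadal and 10.72 in subcutaneous adipose. A predicted gene, Gm20481, overlaps Hspa1a by 2225 bases on the opposite strand and took 27.0 reads over all gonadal libraries, 18 over all subcutaneous ones and 0 in blood.

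Hspa8 encodes HSC70, the HSP70 protein that folds nascent chains and uncoats clathrin vesicles in unstressed cells. It had 838, 919, 1109 and 823 CPM in gonadal libraries (mice 2668, 2683, 2807 and 2846) and 1828, 1316, 1297 and 1672 CPM in subcutaneous libraries (mice 2668, 2771, 2807 and 2846), against 108, 115, 99.0 and 153 CPM in blood (mice 2668, 2683, 2771 and 2807). No value of one group fell within the range of another. Its log2 fold change over blood was 2.96 in gonadal (SE 0.207, edgeR adjusted p = 3.852e-06) and 3.69 in subcutaneous adipose (SE 0.214, adjusted p = 6.99e-07). With protein-coding transcripts alone the values were 2.37 in gonadal and 2.93 in subcutaneous adipose, and both were still called.

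Hsph1, the HSP110 exchange factor of HSP70, rose in both depots. It had 31.3, 68.6, 36.4 and 71.1 CPM in gonadal libraries and 106, 139, 25.2 and 124 CPM in subcutaneous libraries, against 10.02, 8.01, 10.4 and 11.9 CPM in blood, in the same order of mice. Among subcutaneous libraries that of mouse 2807 stood low, yet above all of blood. Its log2 fold change over blood was 2.36 in gonadal (SE 0.454, edgeR adjusted p = 0.003225) and 3.29 in subcutaneous adipose (SE 0.471, adjusted p = 0.0005906), or 2.22 in subcutaneous adipose with protein-coding transcripts alone.

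Both HSP40 genes rose in both depots. Dnaja1, a farnesylated partner of HSC70 in the cytosol, had 873, 300.1, 802 and 535 CPM in gonadal libraries and 2129, 994, 1270.5 and 829 CPM in subcutaneous libraries, against 72.2, 72.6, 77.1 and 76.2 CPM in blood. Blood libraries were thus close together, and gonadal 2683 was the lowest of fat. The log2 fold change was 3.07 in gonadal (SE 0.359, edgeR adjusted p = 9.558e-05) and 4.13 in subcutaneous adipose (SE 0.377, adjusted p = 1.585e-05). Dnajb1, the inducible HSP40 that directs HSP70 to aggregated protein, had 89.1, 91.0, 209.6 and 140.1 CPM in gonadal libraries and 375, 326, 269 and 365 CPM in subcutaneous libraries, against 28.03, 27.2, 24.5 and 27.4 CPM in blood. Its 3 groups did not overlap, and its log2 fold change was 2.31 in gonadal (SE 0.253, adjusted p = 6.349e-05) and 3.64 in subcutaneous adipose (SE 0.267, adjusted p = 3.387e-06). Dnaja1 overlaps Smu1, a splicing factor gene on the opposite strand, by 608 bases. Smu1 took 3763 reads over all gonadal libraries, 2282 over all subcutaneous ones and 3782 over all blood ones. Dnaja1 itself took 1284 to 1641 reads in a single blood library. The strand setting is not given, so these genes may share reads and the blood level of Dnaja1 is less certain.

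Both HSP90 genes rose in both depots. Hsp90aa1 had 470.5, 443, 515 and 505 CPM in gonadal libraries and 1155, 929, 609.5 and 1000.5 CPM in subcutaneous libraries, against 64.6, 70.3, 75.5 and 96.5 CPM in blood. The gonadal libraries were nearly alike, and no groups overlapped. Its log2 fold change over blood was 2.65 in gonadal (SE 0.212, edgeR adjusted p = 7.795e-06) and 3.59 in subcutaneous adipose (SE 0.221, adjusted p = 1.048e-06). Hsp90ab1 had 651, 925, 647 and 784 CPM in gonadal libraries and 1222.5, 934, 757 and 1134 CPM in subcutaneous libraries, against 191, 203, 199 and 320.8 CPM in blood, where the library of mouse 2807 stood apart. The depots overlapped, and both lay above blood. Its log2 fold change was 1.72 in gonadal (SE 0.227, adjusted p = 0.0002572) and 2.15 in subcutaneous adipose (SE 0.23, adjusted p = 5.285e-05), or 2.75 in subcutaneous adipose with an offset for transcript length. The difference between the fold changes of these 2 genes was not tested.

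Of the mitochondrial pair, Hspe1 rose in both depots and Hspd1 passed the test in neither. Hspd1, whose barrel-shaped complex folds proteins imported into the matrix, had 53.8, 67.0, 47.7 and 56.6 CPM in gonadal libraries and 61.4, 62.4, 52.5 and 23.7 CPM in subcutaneous libraries, against 30.4, 35.3, 34.4 and 46.7 CPM in blood. All gonadal values lay above all blood values, whereas subcutaneous 2846 lay below them and blood 2807 lay close to fat. The log2 fold change of 0.62 in gonadal (SE 0.258, edgeR adjusted p = 0.09291) and 0.45 in subcutaneous adipose over blood (SE 0.258, adjusted p = 0.2084) did not pass. Plus or minus 2 SE, they spanned 0.10 to 1.13 in gonadal and -0.06 to 0.97 in subcutaneous adipose. The subcutaneous library of mouse 2846 held 79.0 reads of Hspd1, and without it the values were 0.63 in gonadal (edgeR adjusted p = 0.0098) and 0.70 in subcutaneous adipose (adjusted p = 0.0109), which both passed. The gonadal value also passed when only gonadal and blood libraries were fitted (0.60, adjusted p = 0.02).

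Hspe1, the lid of the Hspd1 barrel, shares the 18-base run printed above with Hspd1. It had 11.1, 27.0, 10.7 and 20.0 CPM in gonadal libraries and 17.4, 22.5, 7.61 and 25.8 CPM in subcutaneous libraries, against 1.29, 4.92, 2.91 and 5.04 CPM in blood. All fat values lay above all blood values. Its log2 fold change was 2.28 in gonadal (SE 0.492, edgeR adjusted p = 0.005411) and 2.36 in subcutaneous adipose (SE 0.496, adjusted p = 0.004808). With protein-coding transcripts alone the subcutaneous value was 1.24 and no longer passed (adjusted p = 0.128). Hspe1 also has 6 named pseudogenes, which held reads worth 1.07% of those of Hspe1 in gonadal, 2.18% in subcutaneous and 22.9% in blood libraries, and its first bases overlap Hspd1 by 112 bases on the opposite strand, so its level in blood is uncertain.

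**Figure D2:**
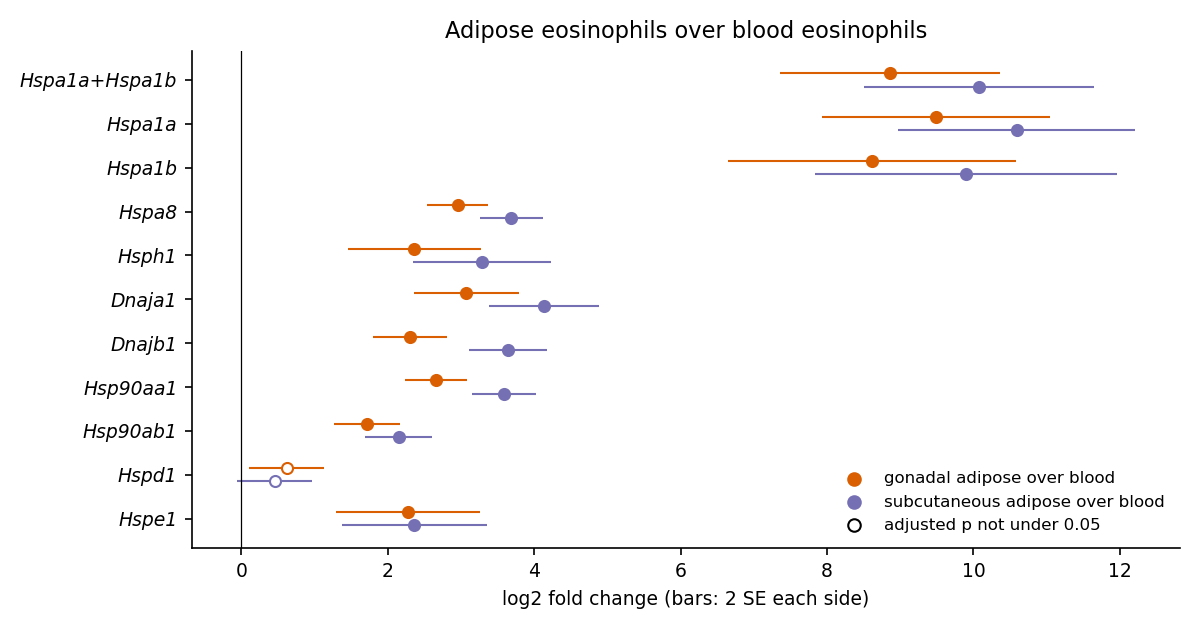
Log2 fold change of each chaperone gene, and of Hspa1a and Hspa1b summed, in gonadal and subcutaneous adipose over blood eosinophils (n = 4 libraries per group); bars span 2 SE each side and open points did not pass the threshold of 0.05. All points lie right of 0, Hspa1a, Hspa1b and their sum lie between 8.62 and 10.59, the other cytosolic genes lie between 1.72 and 4.13, and Hspd1 is open in both.

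In every mouse with a fat and a blood library, all 10 genes were higher in fat than in blood, in 3 of 3 mice for each depot. How many of all genes were higher in 3 of 3 was not counted. Hspd1 passed the test in neither depot. Its log2 difference within a mouse ran from 0.0299 to 0.917 in gonadal and from 0.168 to 1.001 in subcutaneous adipose. Mouse 2846 gave no blood library, so its subcutaneous Hspd1 of 23.7 CPM, below all blood values, is not in this count.

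Levels of different genes were compared per length, as the deposited TPM, which divides by transcript length, summed over the transcripts of a gene. All 10 together reached 716 to 1024 TPM in gonadal and 1129 to 1592 TPM in subcutaneous libraries, against 79.4 to 184.8 TPM in blood. In all 4 blood libraries the order began with Hsp90ab1, Hspa8, Dnaja1, Hsp90aa1, Hspd1 and Dnajb1, and Hspa1a and Hspa1b took ranks 9 and 10. Hsp90ab1 averaged 47.2 ± 18 TPM there, Hspa8 24.5 ± 9.45 TPM and Dnaja1 21 ± 7.36 TPM (SD, n = 4). The values of Hspa8 and Dnaja1 overlapped between libraries, yet within each blood library Hspa8 was the higher, by 1.05 to 1.24 times. Hspe1 and Hsph1 shared ranks 7 and 8 in blood. In fat Hspa1b ranked between 3 and 5 in gonadal and between 1 and 5 in subcutaneous libraries, Hspa1a was 6 in each, and Hspd1 was 7 to 9 in gonadal and 8 to 10 in subcutaneous libraries. Hsp90ab1 averaged 214.6 ± 10.5 TPM in gonadal adipose and Dnaja1, Hspa8 and Hsp90aa1 averaged 162 ± 79.5, 166 ± 33.8 and 100.6 ± 15.0 TPM (SD, n = 4 each). The HSP70 pair made up 7.42% to 21.5% of the chaperone TPM in gonadal and 12% to 36.6% in subcutaneous libraries, against 0.103% to 0.417% in blood.

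**Figure D3:**
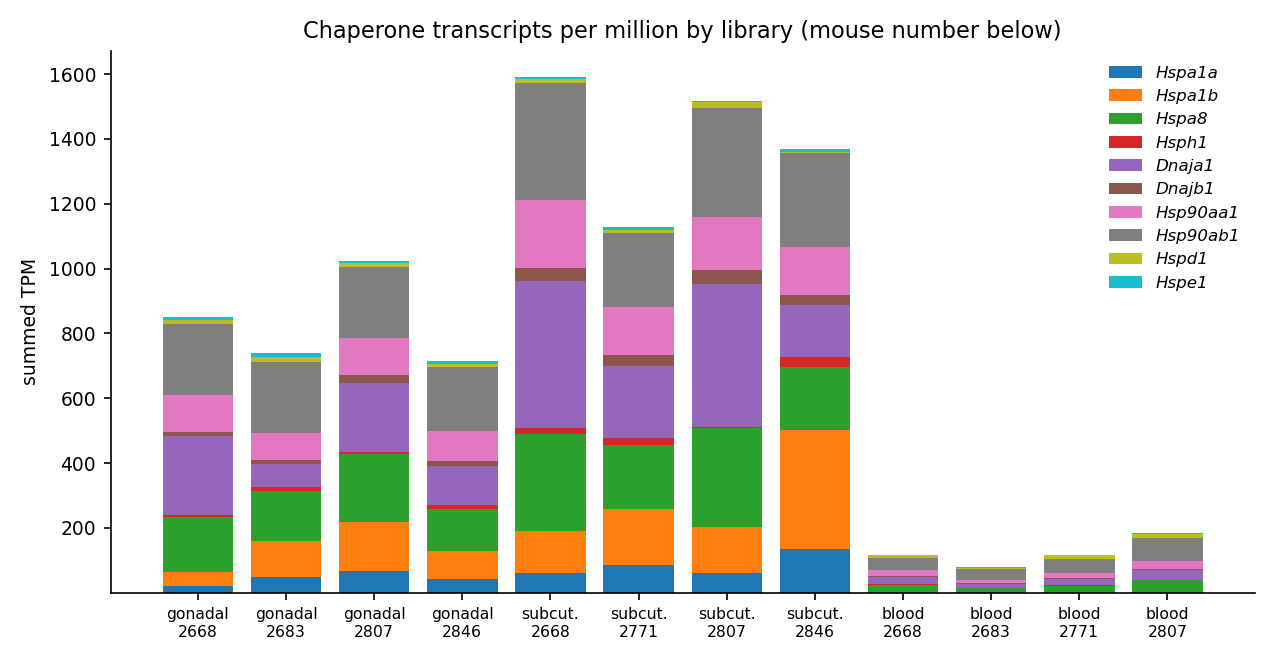
Deposited TPM of the 10 chaperone genes, stacked for each library, with the mouse number below each bar. The summed height is 716 to 1024 TPM in gonadal and 1129 to 1592 TPM in subcutaneous libraries, against 79.4 to 184.8 TPM in blood.

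The libraries were made from total RNA, and the annotation includes transcripts with retained introns, so reads were also divided by the annotated kind of transcript. For 5 genes a larger share lay on transcripts with no coding biotype in fat than in blood, with no overlap between either depot and blood. These were 5 of the 6 chaperone genes that have such transcripts, beside 2.28% of 8437 protein-coding genes with such transcripts and reads in every library (3.77% of the 4751 at 20 CPM or more on average). The reverse, a smaller share in fat, held for 1.43% of the 8437. Over the 4751 genes the median share in a library was 13.9% to 16.4% in gonadal and 14.9% to 20.3% in subcutaneous adipose, against 13.8% to 17.2% in blood. For Hspa8 that share was 37.4% to 56.8% in gonadal and 41.7% to 71.5% in subcutaneous libraries, against 14.8% to 26.6% in blood, and most of it was retained introns. For Hsph1 it was 36.9% to 49.2% in gonadal and 51.4% to 67.1% in subcutaneous libraries, against 10.1% to 23.7% in blood. Dnaja1 had 41.0% to 51.8% in gonadal and 45.4% to 71.0% in subcutaneous libraries, against 23.3% to 32.3% in blood, on transcripts annotated as processed. Hsp90ab1 had 13% to 25.7% in gonadal and 21.7% to 32.3% in subcutaneous libraries, against 5.33% to 9.33% in blood. Hspe1 had 13% to 35.9% in gonadal and 46.6% to 63.6% in subcutaneous libraries, against 0% to 11.3% in blood. Hsp90aa1 had 15.0% to 22.0% in gonadal and 17.1% to 22.6% in subcutaneous libraries, against 19.5% to 33.5% in blood, and these ranges overlapped. Hspa1a, Hspa1b, Dnajb1 and Hspd1 have no transcript of that kind in the annotation. The shares are estimates, because Salmon divides reads between transcripts that share exons.

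**Figure D4:**
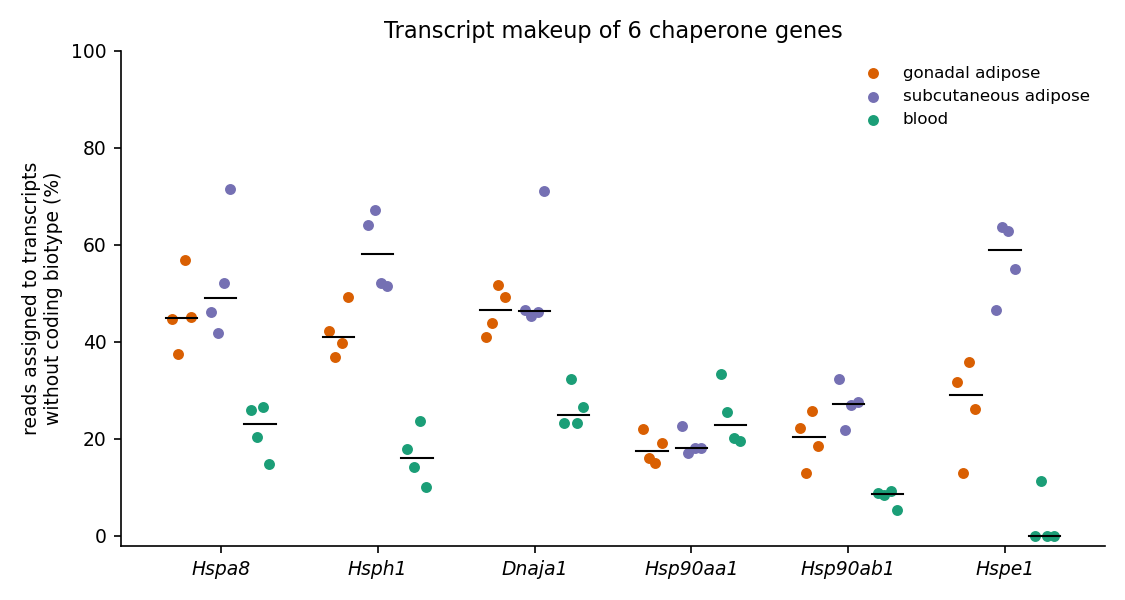
Share of a gene's reads assigned to transcripts without a coding biotype, in percent, for the 6 chaperone genes that have such transcripts; points are libraries (4 per group) and lines are group medians. Fat points lie above all blood points for Hspa8, Hsph1, Dnaja1, Hsp90ab1 and Hspe1, and overlap them for Hsp90aa1.

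Between the depots, the estimates of 9 of the 10 genes were lower in gonadal than in subcutaneous adipose, and none passed the threshold (4 of the 10 had an unadjusted p under 0.05). Of all genes tested, 0.00651% passed in this comparison (1 gene of 15367; 1234 had an unadjusted p under 0.05, and DESeq2 called 153). The median log2 fold change of the 10 genes was -0.93, beside -0.01 for all genes. Groups did not overlap for Hspa8, Dnajb1 and Hsp90aa1, 3 of the 10 genes, as they did not for 1.69% of all genes in that direction. For Dnajb1, with 89.1 to 209.6 CPM in gonadal and 269 to 375 CPM in subcutaneous adipose, the log2 fold change was -1.33 (SE 0.245, edgeR adjusted p = 0.1445). Hsp90aa1 had -0.93 (SE 0.201, adjusted p = 0.1908) and Hspa8 had -0.73 (SE 0.194, adjusted p = 0.3934). DESeq2 called these 3 lower (Dnajb1 -1.37, adjusted p = 0.000135; Hsp90aa1 -0.97, adjusted p = 0.00123; Hspa8 -0.77, adjusted p = 0.0108). In edgeR Dnajb1 also passed without gonadal 2807 (-1.65, adjusted p = 0.0365).

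For the HSP70 pair the depot difference was -1.22 (SE 0.535, edgeR adjusted p = 0.5915) and spanned -2.30 to -0.15 at 2 SE each side, with overlapping groups. Dnaja1 had -1.06 (SE 0.335, adjusted p = 0.4611), Hsph1 -0.92 (SE 0.433, adjusted p = 0.625) and Hsp90ab1 -0.43 (SE 0.221, adjusted p = 0.6642). The mitochondrial genes lay near 0, at 0.16 (SE 0.257, edgeR adjusted p = 0.9039, spanning -0.35 to 0.68) for Hspd1 and -0.08 (SE 0.469, adjusted p = 0.9768, spanning -1.02 to 0.86) for Hspe1. Without subcutaneous 2846 the estimate of Hspd1 was -0.07 and that of Hspe1 0.11. Within the 3 mice that gave both depots, Hspa8, Dnaja1, Dnajb1, Hsp90aa1 and Hsp90ab1 were lower in gonadal adipose in 3 of 3, and the other 5 genes in 2 of 3. How many of all genes were lower in 3 of 3 was not counted.

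**Figure D5:**
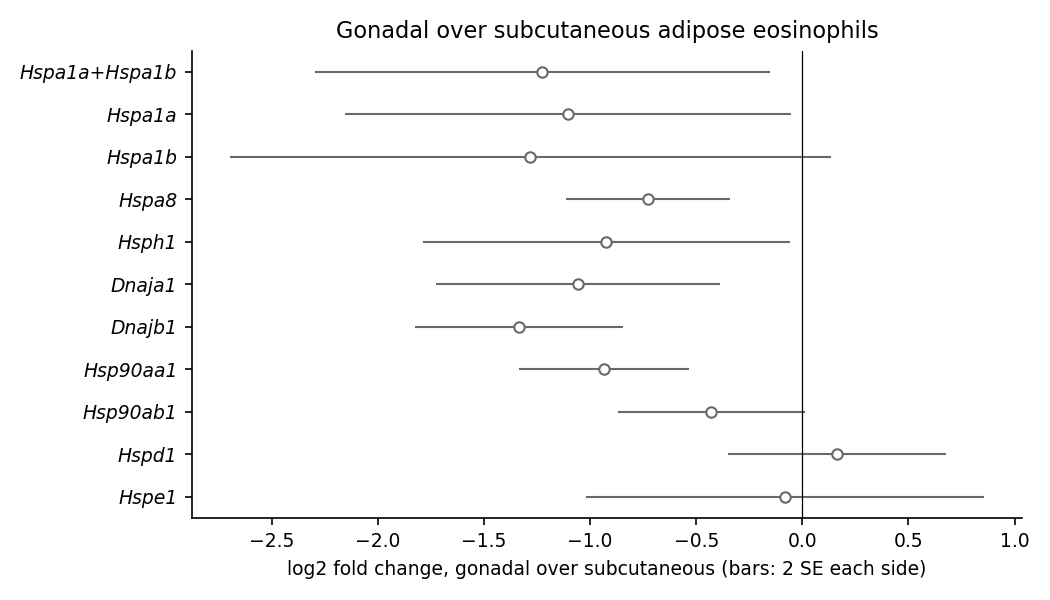
Log2 fold change of each chaperone gene in gonadal over subcutaneous adipose eosinophils (n = 4 libraries per group), with bars of 2 SE each side; open points did not pass the threshold, which is all of them. Dnajb1 lies farthest from 0 at -1.33, and Hspd1, at 0.16, is the one gene right of 0.

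Other genes of the chaperone network were counted on lists drawn up by function. These lists, and that of immediate early genes below, were chosen with earlier results of these data known, so their shares are a description. Of 10 tested genes of the HSP70 and HSP110 families outside the 10 described, 6 rose in gonadal adipose over blood and the same 6 in subcutaneous adipose, and none fell, 60% of the list beside 15.4% of all genes higher in either comparison. They were Hspa12b, Hspa13, Hspa4, Hspa5, Hspa9 and Hyou1, and the list had median log2 fold changes of 1.39 in gonadal and 1.36 in subcutaneous adipose. Hspa5, the HSP70 of the endoplasmic reticulum, averaged 416 ± 81.7 CPM in gonadal and 487 ± 27.5 CPM in subcutaneous adipose, against 165 ± 24.2 CPM in blood (SD, n = 4 each; log2 fold change 1.34 in gonadal and 1.56 in subcutaneous adipose, edgeR adjusted p = 0.0001992 and 6.535e-05). Hspa9, mortalin, the HSP70 of the mitochondrial matrix, had a log2 fold change of 1.44 in gonadal and 1.45 in subcutaneous adipose (edgeR adjusted p = 0.0003853 and 0.0003978), and Hspa13 had 1.90 in gonadal and 1.83 in subcutaneous adipose (edgeR adjusted p = 0.001868 and 0.002433). Hyou1, the HSP110 of the endoplasmic reticulum, had a log2 fold change of 1.45 in gonadal and 1.28 in subcutaneous adipose (edgeR adjusted p = 0.01204 and 0.02205). In subcutaneous adipose the adjusted p of Hyou1 lay between 0.0509 and 0.0674 without subcutaneous 2846 or blood 2668, 2683 or 2771, and with mouse as a block it was 0.0719.

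Of 31 other J-domain genes 6 were higher and 2 lower in gonadal adipose, and 6 higher and 4 lower in subcutaneous adipose. The 19.4% higher in each depot lay near the 15.4% of all genes. The list had median log2 fold changes of 0.24 in gonadal and 0.41 in subcutaneous adipose. Dnajb4, a heat-inducible relative of Dnajb1, had a log2 fold change of 1.87 in gonadal and 2.24 in subcutaneous adipose (edgeR adjusted p = 0.003961 and 0.001603). Dnajb2, which hands clients to the proteasome, had a log2 fold change of 1.07 in gonadal and 1.82 in subcutaneous adipose (edgeR adjusted p = 0.02068 and 0.001337). In gonadal adipose the adjusted p of Dnajb2 lay between 0.0538 and 0.0658 without gonadal 2668 or blood 2668, 2683 or 2807, and was 0.0572 with protein-coding transcripts only. Higher genes in gonadal adipose numbered 1 to 3 without any 1 of the blood libraries or gonadal 2683, and in subcutaneous adipose 2 or 3 without blood 2668, 2683 or 2771. In gonadal adipose 1 gene was lower without gonadal 2668, 2807 or 2846 or blood 2668, 2683 or 2771, and in subcutaneous adipose 2 were lower without blood 2668. With protein-coding transcripts only, 2 were higher in gonadal and 3 in subcutaneous adipose, and with mouse as a block 1 was lower in gonadal adipose.

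Among 26 cochaperones of HSP70 and HSP90, 4 rose and none fell in gonadal adipose, and 5 rose and 1 fell in subcutaneous adipose. The shares that rose, 15.4% in gonadal and 19.2% in subcutaneous adipose, were equal or near to the 15.4% of all genes. With mouse as a block 2 rose in subcutaneous adipose. Stip1, the adaptor that joins HSP70 to HSP90, had 31.1 ± 6.47 CPM in gonadal and 29.1 ± 7.85 CPM in subcutaneous adipose, against 9.81 ± 1.93 CPM in blood (SD, n = 4 each; log2 fold change 1.67 in gonadal and 1.56 in subcutaneous adipose, edgeR adjusted p = 0.0004552 and 0.0007439). Bag3, which links HSP70 to autophagy, had a log2 fold change of 1.33 in gonadal and 1.08 in subcutaneous adipose (edgeR adjusted p = 0.01372 and 0.03559). In subcutaneous adipose the adjusted p of Bag3 lay between 0.0509 and 0.102 without gonadal 2846, subcutaneous 2771 or 2846 or blood 2668, 2683 or 2771, and was 0.0508 with the length offset. Without the same libraries only 1 to 3 cochaperones were higher in subcutaneous adipose, and 2 in gonadal adipose without blood 2668. In gonadal adipose 1 was lower without gonadal 2683 or subcutaneous 2846.

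Hsf1, the main activator of the chaperone genes, averaged 32.4 ± 3.71 CPM in gonadal and 38.4 ± 2.65 CPM in subcutaneous adipose, against 24.01 ± 3.04 CPM in blood (SD over 4 libraries). The log2 fold change of this gene was 0.43 in gonadal (edgeR adjusted p = 0.04657) and 0.68 in subcutaneous adipose (edgeR adjusted p = 0.006302). The gonadal call ended under 17 of 20 alternatives (adjusted p up to 0.244), including the removal of any 1 library other than subcutaneous 2846, and the gonadal estimate ran from 0.32 to 0.51 over them. With a mouse block the gonadal value had an adjusted p of 0.158. The subcutaneous call of Hsf1 ended with the length offset (adjusted p = 0.0789). Hsf2, a related factor, averaged 6.97 ± 5.03 CPM in gonadal and 3.46 ± 1.72 CPM in subcutaneous adipose, against 1.75 ± 0.514 CPM in blood (SD, n = 4 each). Hsf2 had a log2 fold change of 1.99 in gonadal (edgeR adjusted p = 0.02052) and 0.99 in subcutaneous adipose (edgeR adjusted p = 0.2024). The gonadal value of Hsf2 was 1.38 (adjusted p = 0.0974) without gonadal 2683, and its adjusted p was 0.0641 and 0.0509 without blood 2668 and 2683. With protein-coding transcripts only it was 2.64 and did not pass (adjusted p = 0.175). Of 3 factors and regulators tested, 2 were called higher in gonadal (66.7%) and 1 in subcutaneous adipose (33.3%), beside 15.4% of all genes in each. These shares rest on only 3 genes. In gonadal adipose none was called without gonadal 2683 or blood 2668 or 2683, and 1 was called without gonadal 2668 or 2807, subcutaneous 2771 or 2807 or blood 2771 or 2807. With mouse as a block 1 was called in gonadal adipose.

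Of 16 other known targets of HSF1, 9 rose and none fell in each depot (56.2%, beside 15.4% of all genes), with median log2 fold changes of 1.12 in gonadal and 0.98 in subcutaneous adipose. Zfand2a, an arsenite-inducible zinc finger gene, averaged 25.6 ± 11.8 CPM in gonadal and 23.3 ± 6.64 CPM in subcutaneous adipose, against 7.17 ± 0.855 CPM in blood (SD, n = 4 each; log2 fold change 1.84 in gonadal and 1.69 in subcutaneous adipose, edgeR adjusted p = 0.001161 and 0.002039). Serpinh1, a collagen chaperone, had a log2 fold change of 5.18 in gonadal and 6.33 in subcutaneous adipose (edgeR adjusted p = 0.01248 and 0.005873), and its subcutaneous value was 4.67 without subcutaneous 2846. Without blood 2807 Serpinh1 had 6.12 in gonadal and 7.25 in subcutaneous adipose. The subcutaneous library of mouse 2846 held 52.4 CPM of Serpinh1, and its fibroblast marker sum was also the highest, at 4280 CPM. Of 6 small heat shock protein genes 3 rose in each depot (50%, beside 15.4% of all genes). None was called in subcutaneous adipose when only subcutaneous and blood libraries were fitted. Hspb1, which is among the 3, did not pass the low-count filter in that fit and was not tested there. With all 12 libraries it passed the filter through its gonadal level, so the subcutaneous count of 3 includes a gene kept in that way. Hspb1 had 228 reads over gonadal libraries, at 2.62 to 4.32 CPM, and 123 reads over subcutaneous libraries, against 1 read over blood libraries, which lay in the library of mouse 2807. Per read sequenced, the gonadal ratio was 255 (exact 95% counting interval 45.3 to 10115, counting error only). In subcutaneous adipose Hspb1 stood at 22.8 CPM in the library of mouse 2846 and at 0 in that of mouse 2668.

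Chaperones of other compartments were counted as well. Of 15 endoplasmic reticulum genes 11 rose and 1 fell in gonadal adipose, and 6 rose in subcutaneous adipose, with Hspa5 described above (73.3% higher in gonadal and 40% in subcutaneous adipose, beside 15.4% of all genes). With mouse as a block 6 rose and none fell in gonadal adipose, and in subcutaneous adipose 3 rose under the block or without subcutaneous 2846 and 1 or 2 without blood 2668, 2683 or 2771. Calr, the calcium-binding lectin chaperone calreticulin, had a log2 fold change of 1.6 in gonadal and 1.05 in subcutaneous adipose (edgeR adjusted p = 0.004606 and 0.03418), and in subcutaneous adipose its adjusted p lay between 0.0653 and 0.0997 without subcutaneous 2771 or 2846 or blood 2668, 2683 or 2771, and was 0.075 with mouse as a block and 0.0515 with the length offset.

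Of 10 partners of the mitochondrial chaperones 3 rose in each depot, Clpb, Hspa9 and Lonp1 (30%, beside 15.4% of all genes), and 1 fell in gonadal adipose without gonadal 2683. With protein-coding transcripts only, 1 rose in subcutaneous adipose, and the subcutaneous call of Clpb, a disaggregase, ended (adjusted p = 0.112). Lonp1, a matrix protease, had a log2 fold change of 0.72 in gonadal (edgeR adjusted p = 0.0237) and 0.63 in subcutaneous adipose (edgeR adjusted p = 0.04296). Its gonadal adjusted p lay between 0.0547 and 0.083 without gonadal 2683 or 2846 or blood 2683, 2771 or 2807. Its subcutaneous adjusted p lay between 0.0506 and 0.127 without gonadal 2668, 2683 or 2846, subcutaneous 2668, 2771 or 2807 or any 1 blood library. With a mouse block Lonp1 had an adjusted p of 0.0688 in gonadal and 0.0594 in subcutaneous adipose, with the length offset 0.0899 in gonadal and 0.138 in subcutaneous adipose, and with protein-coding transcripts only 0.299 in gonadal and 0.408 in subcutaneous adipose. Without the low-count filter it was 0.0791 in subcutaneous adipose. Of 14 genes of the cytosolic chaperonin and prefoldin, 2 rose and 1 fell in gonadal adipose and 1 rose and 1 fell in subcutaneous adipose. The shares that rose, 14.3% in gonadal and 7.14% in subcutaneous adipose, did not exceed the 15.4% of all genes. With mouse as a block none rose in either depot. None of these chaperonin calls held in all alternatives. In gonadal adipose 1 gene was higher without gonadal 2683 or 2846, subcutaneous 2771 or 2807 or any 1 blood library, and none was lower without gonadal 2668, 2807 or 2846, subcutaneous 2668 or 2807 or blood 2668, 2683 or 2771. In subcutaneous adipose none was higher without gonadal 2668 or 2846, subcutaneous 2668, 2771 or 2807 or any 1 blood library, and none was lower without blood 2683. Of the 2 remaining HSP90 genes, Hsp90b1 of the endoplasmic reticulum had a log2 fold change of 0.62 in gonadal (edgeR adjusted p = 0.01525) and 0.34 in subcutaneous adipose (edgeR adjusted p = 0.1406). The gonadal adjusted p lay between 0.0534 and 0.0656 without gonadal 2846 or blood 2668, 2683 or 2771 and was 0.073 with mouse as a block, and both genes were called without blood 2807. No gene of any of these lists passed between the depots.

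Immediate early and dissociation response genes also differed between fat and blood. Of 20 such genes 18 rose in gonadal (90%) and 19 in subcutaneous adipose (95%) over blood, beside 15.4% of all genes, and none fell, with median log2 fold changes of 3.59 in gonadal and 3.996 in subcutaneous adipose. Their summed level was 15098 to 20215 CPM in gonadal and 16692 to 28623 CPM in subcutaneous libraries, against 2919 to 3590 CPM in blood. Nr4a1, an orphan nuclear receptor induced within minutes of stimulation, had a log2 fold change of 5.68 in gonadal and 5.86 in subcutaneous adipose (edgeR adjusted p = 2.067e-06 and 1.374e-06). Their part in the chaperone result was not tested. The 5 protein-coding genes outside the 10 whose log2 CPM followed the HSP70 pair most closely over the 12 libraries were Gas6, Armcx3, Pf4, Ifrd1 and Nfkbiz, with Pearson r of 0.978 to 0.981 among 5508 genes of at least 20 CPM on average. The libraries fall into a blood and a fat cluster, and r is given over both as a description with no p.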

How the data were processed

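The members and gene lists were chosen with earlier results of these data known. The submitters' processing notes name Salmon 1.6.0, DESeq2 1.30.1, Trim Galore 0.6.4 and the mm10 build. The authors deposited, per the file headers, an estimated count, TPM and effective length for each of 140992 transcripts. The annotation release and strand setting are not given in the sources used here. Overlapping genes on opposite strands may therefore share reads.

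With GENCODE M21, 139791 transcripts were assigned to genes. The other 1201 held 0.351% to 0.538% of reads and were left out. The deposited expected counts were summed per gene and rounded to whole numbers. edgeR 4.0.16 in R 4.3.3 (quasi-likelihood, TMM, filterByExpr) fitted all 12 libraries with group as the only term. Adjusted p-values are Benjamini-Hochberg values over 15367 genes, and errors are SD unless called SE. The procedure was also run on simulated counts with the same spread for every gene and no shared mice. That run therefore does not cover the shared animals of these libraries. The deposited TPM served to compare levels between genes, and the deposited effective length of transcripts entered an alternative offset. Depth was 4379954 to 23734940 estimated reads, and the shallowest library gives the least precise values.

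Same-numbered libraries come from 1 animal. Their deviations from group means correlated at -0.111 to 0.358 over 9 pairs (mean 0.0842), against a mean of -0.0188 for 39 pairs of different mice. P-values measure the spread between animals, some of which gave more than 1 library.

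Named genes are the 10 chaperone genes, up to 3 called genes per list and comparison with the largest fold change and at least 5 CPM, Hsf1 and Hsf2, sort and eosinophil markers, and the 5 genes most like the HSP70 pair. Those described are a selection of these, and other gene names are the called genes of a list or genes overlapping a member. Alternatives were DESeq2 1.42.0, RLE normalization, no low-count filter, mouse as a block, a length offset, protein-coding transcripts only, the compared groups only, and libraries left out.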

Additional observations from a re-analysis of the deposited data

Results flagged for a closer look

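Among 33 sets of 4 libraries (10 chaperone genes and the HSP70 sum in 3 groups), the spacing of values set 1 library apart. In blood 2807 Hsp90ab1 stood at 320.8 CPM, and the other blood libraries ran from 191 to 203 CPM. Chance alone sets about 1 in 20 such groups apart. Without that library Hsp90ab1 was still called higher in both depots.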

How the results depend on the processing

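Of 20 alternatives, none ended the call of 1 of the 10 chaperone genes in gonadal adipose over blood, and 1 ended a call in subcutaneous adipose, that of Hspe1 with protein-coding transcripts only (1.24). All genes called in gonadal adipose over blood numbered 4152 (2753 to 5075 with 1 library left out, 3277 with mouse as a replicate block). In subcutaneous adipose over blood 4121 were called (2737 to 4256 with 1 library left out, 2910 with the block). The block changed no call of the 10 chaperone genes. The calls it ended among other genes named with values (Hyou1, Calr, Hsp90b1, Lonp1 and Hsf1) stand beside them, and those of Ppid are given below. Between the depots 1 gene was called, 153 with DESeq2, 0 with the block, with protein-coding transcripts only, with only the 2 groups compared or without the 2 libraries that stood apart, and 0 to 7 with 1 library left out. Chaperone genes called lower in gonadal than subcutaneous adipose numbered 3 with DESeq2 and 0 to 1 with 1 library left out. Signs between the depots turned for Hspd1 (-0.0703 without subcutaneous 2846, -0.06997 without both libraries that stood apart, and -0.0703 to 0.277 with 1 library left out). They turned for Hspe1 with the length offset (0.113), protein-coding transcripts only (0.681), without both libraries that stood apart (0.108), and without gonadal 2668 (0.0864) or 2807 (0.0902) or subcutaneous 2771 (0.0315) or 2846 (0.107), in a range of -0.378 to 0.107 with 1 library left out. Ppid, a cyclophilin, had a log2 fold change over blood of 0.82 in gonadal (edgeR adjusted p = 0.0344) and 0.97 in subcutaneous adipose (adjusted p = 0.0168). The block ended both calls (edgeR adjusted p = 0.0788 in gonadal and 0.054 in subcutaneous adipose). With protein-coding transcripts only, the subcutaneous value of Ppid turned to -0.55 and was not called (edgeR adjusted p = 0.646). The causes were not tested. The blood values of the HSP70 pair rest on 21.7 to 84.0 reads a library, and Hspd1 rests on 79.0 reads in subcutaneous 2846.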
